A study of Mus musculus with 12 samples.

Results

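The genes described here are interferon response genes of the mouse uterus: transcription factors that carry the interferon signal, sensors of viral RNA, antiviral effector proteins, immunity-related GTPases, and parts of the class I antigen presentation pathway. They were chosen by name, as the probe sets whose single gene symbol is one of 38 listed genes, taking the brightest probe set where a gene had more than 1. Of the 38 genes, 33 had such a probe set, out of 19938 genes with a single-symbol probe set in the whole series. Isg15, Irgm2, Igtp and Gbp2 are named only on probe sets that carry several symbols, and Ifi44 is named on none, so these 5 genes were not analysed here.

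The study grew uterine epithelial and stromal cells of CD-1 mice together and asked, in each cell layer, how transcription differs between estradiol (E2) and vehicle. Cells came from uteri on day 4 of pseudopregnancy, a state in which the uterus has been readied for implantation without embryos. The epithelium was grown in inserts coated with matrigel and the stroma on cover slips, and both layers shared a medium free of phenol red with charcoal-stripped serum, which removes most steroids. The 4 groups, with 3 arrays each, were epithelial cells given 10 nM E2 for 2 days, epithelial cells given the vehicle (0.01% ethanol) for 2 days, stromal cells of the E2-treated co-cultures, and stromal cells of the vehicle-treated co-cultures. The layers were harvested separately and hybridised to Affymetrix Mouse Gene 1.0 ST arrays. The labels do not say whether replicates came from separate animals or pools, so the p-values speak only of the spread among these samples, which may be technical. Values are log2 RMA values (robust multi-array average, a normalised probe-set intensity), on which a difference of 1 is 2-fold. Differences are given ± their standard error (SE) from limma, and group means ± SD. Probe sets differ in how brightly they bind, so a brighter probe set does not mean a more abundant transcript.

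Interferons are secreted proteins that bind receptors on the same or neighbouring cells. The receptors' kinases (Jak1, Jak2, Tyk2) activate STAT transcription factors. Complexes that hold STAT2 and IRF9 bind the interferon-stimulated response element (ISRE), and the response to interferon gamma is read through the gamma-activated sequence (GAS). Many target genes are also transcribed at a basal level without added interferon. In the uterus this response is best known from early pregnancy, when conceptus signals in ruminants and immune cells in rodents switch parts of it on, and from interferon epsilon (Ifne), which the epithelium of the female reproductive tract makes constitutively.

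The RefSeq promoters of the 5 members that passed the E2 test in stroma, and of Ifit1 and Rsad2, classical targets that did not pass it, are shown for the interferon elements they do or do not hold. Each is given on build GRCm38.p6 as the 250 bases before the annotated start, 5′ to 3′ on the gene's strand, in lower case. Capitals mark matches to the ISRE core GAAANNGAAA or to the GAS letters TTCNNNGAA, on either strand.
Irgm1, chr11:48871421-48871670, minus strand: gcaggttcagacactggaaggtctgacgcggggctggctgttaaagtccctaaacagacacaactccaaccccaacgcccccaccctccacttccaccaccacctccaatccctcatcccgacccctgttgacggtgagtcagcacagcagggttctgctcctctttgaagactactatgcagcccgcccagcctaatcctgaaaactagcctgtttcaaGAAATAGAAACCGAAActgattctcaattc
Irf1, chr11:53769764-53770013, plus strand: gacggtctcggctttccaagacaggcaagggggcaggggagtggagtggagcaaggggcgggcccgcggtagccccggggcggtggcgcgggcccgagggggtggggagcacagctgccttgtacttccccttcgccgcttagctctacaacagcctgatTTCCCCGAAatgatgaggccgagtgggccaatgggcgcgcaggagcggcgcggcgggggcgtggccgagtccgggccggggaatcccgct
Ifitm3, chr7:141010745-141010994, minus strand: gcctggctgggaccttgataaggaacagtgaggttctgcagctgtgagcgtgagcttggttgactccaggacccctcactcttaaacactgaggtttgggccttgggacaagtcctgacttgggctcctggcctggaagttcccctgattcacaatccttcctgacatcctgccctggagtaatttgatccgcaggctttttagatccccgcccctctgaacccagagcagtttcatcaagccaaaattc
Trim25, chr11:88999153-88999402, plus strand: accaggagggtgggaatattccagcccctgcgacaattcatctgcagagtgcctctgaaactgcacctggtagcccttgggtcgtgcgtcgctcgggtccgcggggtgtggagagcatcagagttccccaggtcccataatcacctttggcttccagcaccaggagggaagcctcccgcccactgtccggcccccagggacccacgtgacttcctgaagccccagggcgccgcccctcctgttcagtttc
Bst2, chr8:71537473-71537722, minus strand: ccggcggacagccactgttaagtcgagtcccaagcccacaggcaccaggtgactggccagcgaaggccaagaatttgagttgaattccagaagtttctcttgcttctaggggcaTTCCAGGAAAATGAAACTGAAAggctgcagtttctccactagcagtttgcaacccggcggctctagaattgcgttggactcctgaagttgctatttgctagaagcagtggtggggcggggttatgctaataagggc
Ifit1, chr19:34640639-34640888, plus strand: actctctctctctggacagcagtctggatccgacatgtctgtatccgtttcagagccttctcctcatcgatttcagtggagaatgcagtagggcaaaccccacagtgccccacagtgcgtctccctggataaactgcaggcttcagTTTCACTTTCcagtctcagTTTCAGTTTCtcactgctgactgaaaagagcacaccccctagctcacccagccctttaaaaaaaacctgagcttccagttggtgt
Rsad2, chr12:26456453-26456702, minus strand: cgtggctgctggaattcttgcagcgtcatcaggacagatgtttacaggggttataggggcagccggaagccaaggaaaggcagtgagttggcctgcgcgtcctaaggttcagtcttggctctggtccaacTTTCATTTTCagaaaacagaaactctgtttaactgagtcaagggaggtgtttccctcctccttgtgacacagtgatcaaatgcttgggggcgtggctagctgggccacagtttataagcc

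In the Irgm1 promoter, overlapping ISRE-core matches spanned bases 30 to 15 before the start. The Bst2 promoter held overlapping matches too, a GAS at bases 136 to 128 and ISRE cores within bases 130 to 115. Irf1 had a GAS match at bases 90 to 82 and no ISRE core in the window shown. RefSeq lists a second Irf1 promoter, not shown, in which neither of these nor a kappaB match occurred. Neither element's letters occurred in the Ifitm3 and Trim25 windows. In Ifit1 the ISRE cores lay at bases 104 to 95 and 85 to 76, and in Rsad2 there was 1, at bases 120 to 111. Over the 31 promoters listed for 26 of the measured members, 11 (35.5%) held the ISRE core, against 2.98% of 32851 RefSeq promoters of the same length. The GAS letters were in 6 of the 31 (19.4%), against 7.02% of all promoters, and a kappaB motif was in 7 (22.6%), against 7.25%. The estrogen response element GGTCANNNTGACC was in 0 of the 31 and in 0.064% of all promoters. These are matches of letters, and no binding was measured.

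Some arrays and layers must be described before the results. The epithelial marker genes averaged 10.4 to 10.6 in E2-treated epithelial arrays and 11.7, 12.1 and 10.6 in vehicle-treated epithelial arrays. In stromal arrays they averaged 6.89 to 7.58, so these markers separated the layers as labelled. Stromal markers did not separate them as clearly and were high in both layers. Their mean was 10.7 to 10.8 in E2-treated and 10.1 to 10.9 in vehicle-treated epithelial arrays, against 10.9 to 11.1 in stromal arrays. Of 12 stromal markers, 2 were called lower in epithelium under E2 and 6 under vehicle (limma). Macrophage and leukocyte markers averaged 8.61 to 9.29 in E2-treated and 8.27 to 8.72 in vehicle-treated epithelial arrays, and 9.05 to 9.26 in E2-treated and 9.25 to 9.48 in vehicle-treated stromal arrays. The lymphocyte marker mean stayed between 5.37 and 5.73 in every array, and the dendritic cell marker mean between 6.31 and 6.93. The endothelial marker mean stayed between 7.44 and 7.90, but single genes of that list differed. Epithelial minus stromal differences of the 7 endothelial markers ran from -2.61 to 3.27 under E2 and from -1.43 to 2.34 under vehicle. Under each treatment 1 was called higher and 1 lower in epithelium (limma). With E2, 1 of the 7 was called lower in stroma and 1 higher in epithelium. In bulk RNA, fewer cells of a type and less RNA per cell cannot be told apart. Of 5 genes listed as E2 response controls, Pgr, Greb1 and Igf1 rose with E2 in epithelium and Greb1 rose in stroma. Pgr, the progesterone receptor gene, differed by 2.98 ± 0.24 in epithelium (SE; limma adjusted p = 0.000138) and by 0.92 ± 0.24 in stroma (limma adjusted p = 0.07). Esr1, the estrogen receptor gene, did not pass in either layer, with differences of 0.25 in epithelium and -0.45 in stroma.

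The probe sets of the members differed widely in brightness. That of B2m, the light chain of class I molecules, was the brightest, with 12.53, 12.48 and 12.41 in E2-treated and 12.57, 12.91 and 12.63 in vehicle-treated epithelial cells, and 12.54, 12.45 and 12.58 in E2-treated and 12.71, 12.63 and 12.72 in vehicle-treated stromal cells. Mx1, a dynamin-like GTPase that blocks virus replication and is defective in many laboratory strains, had the dimmest, with 4.55, 4.74 and 4.87 in E2-treated and 4.69, 4.76 and 4.79 in vehicle-treated epithelial cells, and 4.63, 4.86 and 4.79 in E2-treated and 4.71, 4.69 and 4.69 in vehicle-treated stromal cells. Neither gene passed the test in any comparison below.

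**Figure D1:**
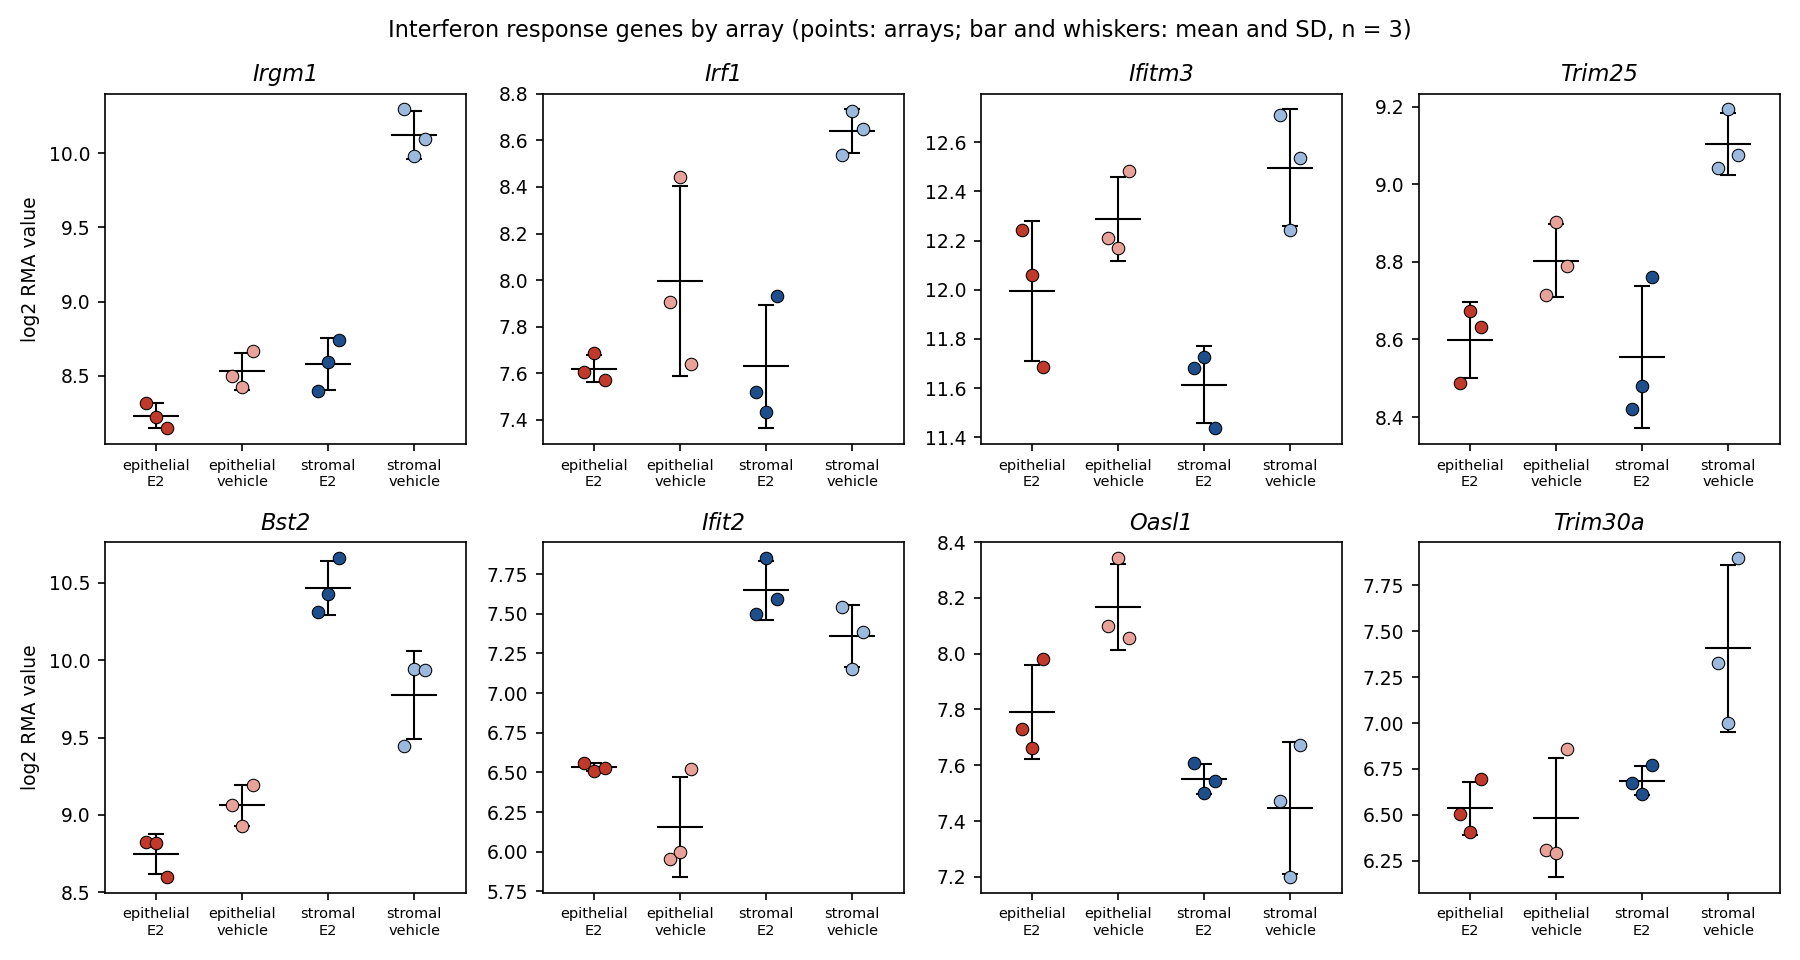
Log2 RMA value (vertical axes, a separate scale per gene) of 8 interferon response genes on every array of the 4 groups (horizontal axes), with the group mean and SD (n = 3). The stromal E2 arrays of Irgm1 lie between 8.40 and 8.74, far below the stromal vehicle arrays and beside the epithelial ones, while Bst2 is highest in the E2-treated stroma.

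The first comparison asked how E2 changed these genes in stromal cells. With E2, 4 members fell (Irgm1, Irf1, Ifitm3 and Trim25) and 1 rose (Bst2), while 28 of the 33 did not pass an adjusted p of 0.05 (limma, Benjamini-Hochberg over 23410 probe sets). Among all probe sets tested, 1.98% were called lower and 1.52% higher. A limma fit with array weights called 15 members lower, the 4 above among them, and 1 higher. The share of all probe sets called in the weighted fit was not counted, so these counts cannot be set against the shares above. The median E2 difference of the members was -0.16, beside 0.03 for all probe sets, and 22 members were measured lower and 11 higher. Without stromal vehicle replicate 3 that median was -0.095, and without stromal vehicle replicate 2 it was -0.25. Of the 12 macrophage and leukocyte markers 0 passed in stroma (limma; 3 had an unadjusted p under 0.05, beside 12.5% of all probe sets). The median difference of that marker list was -0.40. Its part in the result was not tested.

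Irgm1, an immunity-related GTPase that targets intracellular pathogens and regulates autophagy, changed most. Its probe set (10385500) read 8.40, 8.59 and 8.74 in E2-treated stroma, against 10.29, 9.98 and 10.10 in vehicle-treated stroma. Every E2 array was below every vehicle array by more than 1 log2 unit. The fall was 2.92-fold (log2 difference -1.54 ± 0.12, SE; limma adjusted p = 5.56e-05). The other measured GTPases did not pass: Gbp3, a guanylate-binding protein, differed by -0.26 ± 0.17, and Iigp1, which attacks parasite vacuoles, by -0.02 ± 0.14, at levels of 4.62 to 4.69 in all 6 stromal arrays.

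Among the signal transducers and regulators, Irf1, an interferon regulatory factor induced by interferon gamma, was lower. Its brighter probe set (10376060) gave 7.52, 7.43 and 7.93 in E2-treated stroma, against 8.54, 8.73 and 8.65 in vehicle-treated stroma. The groups did not overlap, although the third E2 array lay closer to the vehicle arrays than the others did. The log2 difference was -1.01 ± 0.18, a 2.01-fold fall (limma adjusted p = 0.0106). A second, dimmer Irf1 probe set disagreed, with means of 6.86 in E2-treated and 6.89 in vehicle-treated stroma and a log2 difference of -0.03 ± 0.11 (SE; limma adjusted p = 0.966). The Irf1 call therefore rests on 1 of its probe sets. Irf9 and Stat2, which are parts of the ISRE-binding complex, differed by -0.34 and -0.30 without passing, and Irf7, which amplifies interferon production, differed by -0.15.

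The antiviral proteins of membranes and virus particles went both ways. Ifitm3, which blocks virus entry from endosomes, read 11.68, 11.73 and 11.44 in E2-treated stroma, against 12.71, 12.24 and 12.54 in vehicle-treated stroma. All E2 arrays were lower, with a log2 difference of -0.88 ± 0.16 (1.84-fold; limma adjusted p = 0.0116). Bst2 (tetherin), which holds budding virus particles on the cell surface, moved the other way, with 10.32, 10.43 and 10.66 in E2-treated stroma, against 9.45, 9.94 and 9.94 in vehicle-treated stroma. Every E2 array was above every vehicle array, and the rise was 1.62-fold (log2 difference 0.69 ± 0.15, SE; limma adjusted p = 0.024). Mx2, a relative of Mx1, and Rsad2 (viperin), which makes a chain-terminating nucleotide, differed by -0.06 ± 0.09 and -0.15 ± 0.38 and did not pass.

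In the ISG15 system and its ubiquitin ligases, Trim25, the ligase that helps activate the RNA sensor RIG-I, fell 1.46-fold. It read 8.42, 8.48 and 8.76 in E2-treated stroma, against 9.04, 9.19 and 9.07 in vehicle-treated stroma, again without overlap (log2 difference -0.55 ± 0.11, SE; limma adjusted p = 0.0139). All 6 measured genes of this role were measured lower, and Trim25 was the 1 that passed. Trim30a, which restrains Toll-like receptor signals, differed by -0.72 ± 0.21, and Parp14, an ADP-ribosyltransferase, by -0.74 ± 0.30, with limma adjusted p-values of 0.106 and 0.318. Both also had E2 arrays that lay wholly below the vehicle arrays.

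None of the 9 translation and RNA effectors passed in stroma (limma; 1 had an unadjusted p under 0.05, beside 12.5% of all probe sets). Ifit1, which binds foreign messenger RNA ends, differed by -0.48 ± 0.23, whereas Ifit2 and Ifit3 of the same family were measured higher, by 0.29 and 0.39. Oasl2, a member of the oligoadenylate synthetase family, had 7.48, 7.38 and 7.70 in E2-treated stroma, against 8.48, 7.38 and 8.90 in vehicle-treated stroma. Its second vehicle array lay with the E2 arrays, and the difference of -0.73 ± 0.32 did not pass (limma adjusted p = 0.362). Without that vehicle array, Oasl2 and Trim30a passed and Trim25 did not. Oas1a, Oas2, Oas3 and Oasl1, enzymes or relatives of the same family, and the kinase Eif2ak2 (PKR) had differences from -0.06 to 0.13. Oas1a is uncertain, since a further probe set names it together with Oas1g.

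Class I antigen presentation did not pass either: Psmb8 and Psmb9 (immunoproteasome subunits), Tap1 (the peptide transporter) and B2m had stromal differences from -0.16 to 0.16. The E2 and vehicle arrays did not overlap for 7 members lower with E2 and 2 members higher, against 14.6% and 15.9% of all probe sets. Besides the called genes these were Trim30a, Parp14 and B2m (lower) and Psmb8 (higher).

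Apart from that of Irgm1, the calls in stroma depended on single arrays. Irgm1 passed when any 1 of the 12 arrays was left out. Leaving out 1 stromal array at a time, Bst2 missed the threshold without vehicle replicate 1, E2 replicate 2 or E2 replicate 3. Ifitm3 missed it without vehicle replicate 1, vehicle replicate 3 or E2 replicate 3, and Trim25 without vehicle replicate 2, vehicle replicate 3, E2 replicate 1 or E2 replicate 2. Irf1 missed it without E2 replicate 1 or E2 replicate 2.

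**Figure D2:**
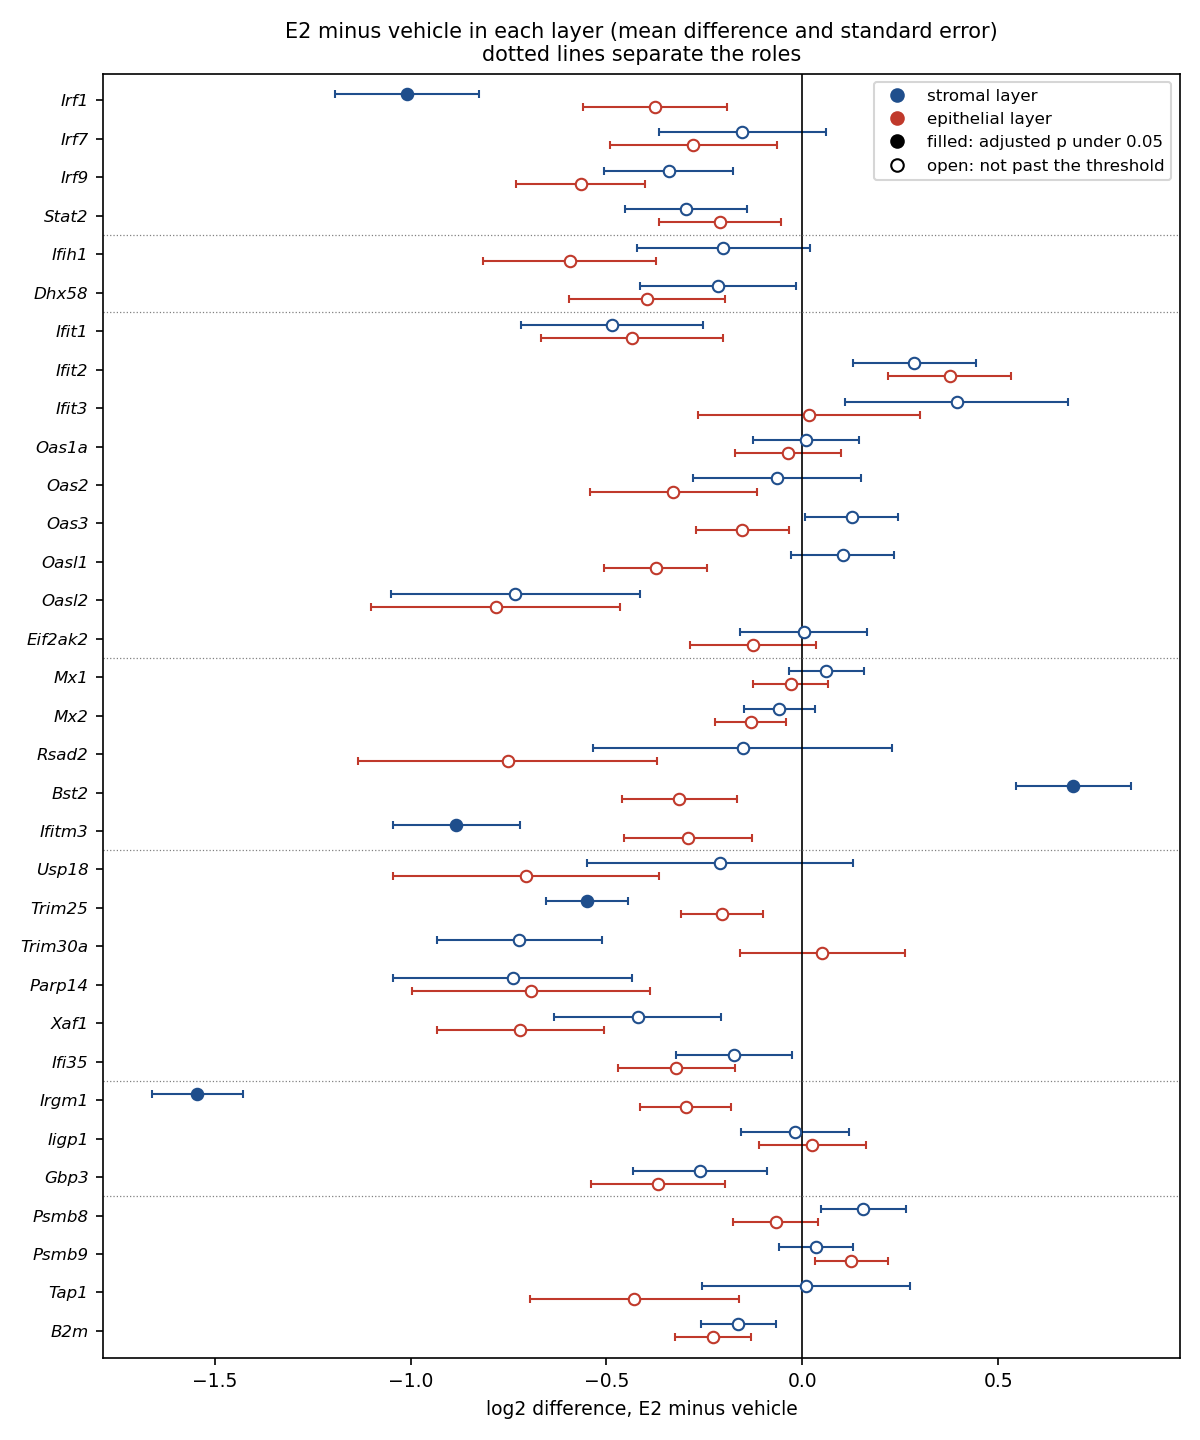
E2 minus vehicle log2 difference (horizontal axis) of the 33 measured genes, ordered by role from regulators to antigen presentation (vertical axis), with standard errors, in the stromal layer (blue, upper mark) and the epithelial layer (red, lower mark). Filled marks passed an adjusted p of 0.05: 5 stromal marks, with Irgm1 at -1.54 and Bst2 at 0.69 as the extremes, and no epithelial mark, although 28 of the 33 epithelial marks lie left of 0.

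The same question in epithelial cells gave no called member. None of the 33 genes passed (limma adjusted p of 0.05; 9 had an unadjusted p under 0.05, beside 16.2% of all probe sets), while 1.77% of all probe sets were called higher and 1.12% lower. The members were nevertheless measured lower as a rule: 28 of 33 were below 0, with a median of -0.30, beside 0.03 for all probe sets. For 12 members every E2 array was below every vehicle array, and for 0 members above, against 8.04% and 6.95% of all probe sets. The smallest adjusted p was 0.0989, for Irf9. A limma fit with array weights called 5 members lower (Irf9, Oasl1, Ifih1, Gbp3 and Xaf1), without a count of the share of all probe sets it called.

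The epithelial vehicle arrays differed from one another, and the size of these differences moved with single arrays. Without vehicle replicate 2 the members' median was -0.15, and without vehicle replicate 1 it was -0.39. Vehicle replicate 2 also had the highest epithelial marker mean (12.1) and the lowest macrophage and leukocyte marker mean (8.27) of the epithelial arrays, and 29 members were still measured lower without it. Among the macrophage and leukocyte markers, 1 of 12 (Csf1r) was called higher with E2 in the epithelial layer and 0 lower, and 11 of the 12 were measured higher (median difference 0.61). All 9 measured epithelial markers were measured lower with E2 in that layer (median difference -0.74), of which 1 was called. Any part of these shifts in the members' values was not tested.

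Rsad2 showed the array dependence most plainly. It read 6.20, 6.14 and 6.21 in E2-treated epithelial cells, against 6.41, 8.18 and 6.23 in vehicle-treated ones. The second vehicle array alone was high, and the difference of -0.75 ± 0.38 did not pass (limma adjusted p = 0.37). Usp18, the protease that removes ISG15, had 8.11, 8.03 and 7.73 in E2-treated and 8.38, 9.47 and 8.15 in vehicle-treated epithelial cells, with the same array highest. Parp14 followed the same pattern, with 7.21, 7.13 and 7.27 in E2-treated and 7.51, 8.83 and 7.36 in vehicle-treated epithelial cells.

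For other epithelial members the vehicle arrays were more evenly spread than for Rsad2, Usp18 and Parp14. Even so, Irf9, Oasl1 and Xaf1 were also highest on vehicle replicate 2, and the SD of Irf9 was 0.363 under vehicle and 0.088 under E2. Irf9 read 7.96, 7.95 and 8.11 in E2-treated epithelial cells, against 8.19, 8.92 and 8.60 in vehicle-treated ones, a difference of -0.57 ± 0.16. Oasl1, which limits Irf7 translation in mice, read 7.73, 7.66 and 7.98 in E2-treated and 8.10, 8.34 and 8.06 in vehicle-treated epithelial cells (-0.37 ± 0.13). Xaf1, a promoter of cell death, read 6.83, 6.65 and 7.16 in E2-treated and 7.31, 7.93 and 7.56 in vehicle-treated epithelial cells (-0.72 ± 0.21). In each the groups were separate, and none passed (limma adjusted p = 0.0989, 0.171 and 0.104). Both RNA sensors were measured lower, with differences of -0.59 for Ifih1 (MDA5) and -0.40 for its relative Dhx58 (LGP2). Their vehicle arrays were not evenly spread, with SDs of 0.496 and 0.47, and both genes were highest on vehicle replicate 2. Dhx58 read 6.71 on it, against 5.89 on each other vehicle array, and the Ifih1 groups overlapped. Oasl2 read 8.11, 7.92 and 8.28 in E2-treated and 8.48, 8.94 and 9.24 in vehicle-treated epithelial cells, which do not overlap.

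The 4 genes that fell in stroma had smaller epithelial differences. Irgm1 read 8.32, 8.23 and 8.15 in E2-treated epithelial cells, against 8.499, 8.42 and 8.67 in vehicle-treated ones (-0.30 ± 0.12; limma adjusted p = 0.222). Irf1 differed by -0.38 ± 0.18, Ifitm3 by -0.29 ± 0.16 and Trim25 by -0.20 ± 0.11. Bst2, which rose in stroma, was lower on every E2 array of the epithelium, with 8.82, 8.82 and 8.60 in E2-treated and 9.06, 8.93 and 9.19 in vehicle-treated cells (-0.31 ± 0.15; limma adjusted p = 0.326). Ifit2 was the member measured highest with E2 in epithelium, by 0.38 ± 0.16 (limma adjusted p = 0.257).

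Whether the layers responded differently was tested directly, as the epithelial E2 response minus the stromal one. Irgm1 alone passed: its difference was 1.25 ± 0.16 (SE; limma adjusted p = 0.00691), so that its fall was larger in stroma. Among all probe sets 0.641% were called higher and 0.269% lower in this test. Bst2 had the largest difference in the other direction, -1.01 ± 0.21 with a limma adjusted p of 0.0516, just outside the threshold, and its arrays separated in opposite directions in the layers. Bst2 passed when probe sets with a mean under 6 were left out, after quantile normalisation, when probe sets of a gene were averaged, and with array weights. It also passed without epithelial vehicle replicate 2, epithelial vehicle replicate 3 or epithelial E2 replicate 3. In all other alternatives it did not pass, among them scaling to 1 median or to reference genes, the robust variance model, the replicate block and every other left-out array. The remaining members did not pass (limma; 7 of the 33 had an unadjusted p under 0.05, beside 10.5% of all probe sets). Irf1, Ifitm3 and Trim25 had differences of 0.63, 0.59 and 0.34, with limma adjusted p-values of 0.391, 0.36 and 0.433, so a stromal call beside no epithelial call does not show that these 3 responded differently. With array weights all 3 passed, and so did Trim30a (higher) and Oasl1 (lower), which gave 5 members higher and 2 lower in all. The share of all probe sets called with weights was not counted here either.

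The layers themselves were compared under each treatment, as epithelial minus stromal, on the same 12 arrays as above. Under E2, 2 members were lower in epithelium, Bst2 and Ifit2, and none was higher (limma). An unadjusted p under 0.05 was found for 5 of the 33, beside 27.1% of all probe sets. Array weights called 4 higher and 8 lower. The counts without weights lie below that fit's background of 9.18% lower and 4.43% higher, and no background was counted with weights. Under vehicle, 5 members were lower in epithelium (Irgm1, Ifit2, Bst2, Trim30a and Irf1) and 1 was higher (Oasl1), against 14.1% and 7.27% of all probe sets. The lower share is close to that background and the higher share is below it. The median layer difference of the members was -0.0021 under E2 and 0.05 under vehicle, beside 0.02 for all probe sets under either treatment. Leaving out 1 array at a time moved it between -0.082 and 0.071 under E2 and between 0.033 and 0.137 under vehicle. With the replicate number as a block, 2 members were higher in epithelium under vehicle, Oasl1 and Tap1. The share of all probe sets called with the block was not counted.

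Bst2 and Ifit2 differed between the layers under both treatments. Bst2 was lower in epithelium, with differences of -1.72 ± 0.15 under E2 and -0.71 ± 0.15 under vehicle (limma adjusted p = 2.83e-05 and 0.0052). Ifit2 read 6.56, 6.51 and 6.53 in E2-treated epithelium, against 7.50, 7.85 and 7.59 in E2-treated stroma. Under vehicle it read 5.95, 5.996 and 6.52 in epithelium, against 7.54, 7.15 and 7.39 in stroma. The layers did not overlap in either case, with differences of -1.11 ± 0.16 and -1.20 ± 0.16 (limma adjusted p = 0.000686 and 0.000333).

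Other layer differences were called under vehicle alone. Irgm1 was lower in epithelium under vehicle (-1.59 ± 0.12, 3.02-fold; limma adjusted p = 8.46e-06), while under E2 the difference was -0.35 ± 0.12 (limma adjusted p = 0.0742). Since the change in a layer difference is the same contrast as the difference in E2 response, the test given above for Irgm1 applies to it. In the main fit that test did not pass for Trim30a, Irf1 or Oasl1. Their differences in response were 0.77, 0.63 and -0.48 (limma adjusted p = 0.349, 0.391 and 0.358). For these genes a change of the layer difference with E2 was therefore not shown. Trim30a read 6.31, 6.29 and 6.86 in vehicle-treated epithelium, against 7.33, 7.001 and 7.90 in vehicle-treated stroma (-0.92 ± 0.21; limma adjusted p = 0.00913). Under E2 it read 6.51, 6.41 and 6.69 in epithelium, against 6.67, 6.61 and 6.77 in stroma, values that overlap. Irf1 was lower in vehicle-treated epithelium (-0.64 ± 0.18; limma adjusted p = 0.0279), a call lost in 8 of 22 alternatives, and its dimmer probe set differed by 0.12 in the other direction. Without epithelial vehicle replicate 2, 8 members were called lower in epithelium under vehicle, Trim25, Parp14 and Eif2ak2 being added. The share of all probe sets called without that array was not counted.

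Oasl1 was the member called higher in epithelium, with 8.10, 8.34 and 8.06 in vehicle-treated epithelium, against 7.47, 7.20 and 7.67 in vehicle-treated stroma (0.72 ± 0.13; limma adjusted p = 0.00269). Its E2 values did not overlap between layers either, 7.73, 7.66 and 7.98 in epithelium and 7.61, 7.50 and 7.54 in stroma, but the difference of 0.24 ± 0.13 did not pass. Rsad2 and Oasl2 had larger or similar vehicle layer differences, 0.77 ± 0.38 and 0.63 ± 0.32, with overlapping arrays, and did not pass. Beside these values, 7 of 12 macrophage and leukocyte markers were lower and 1 higher in vehicle-treated epithelium than in vehicle-treated stroma, and 6 of 12 stromal markers were lower. Their part in the layer differences was not tested.

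**Figure D3:**
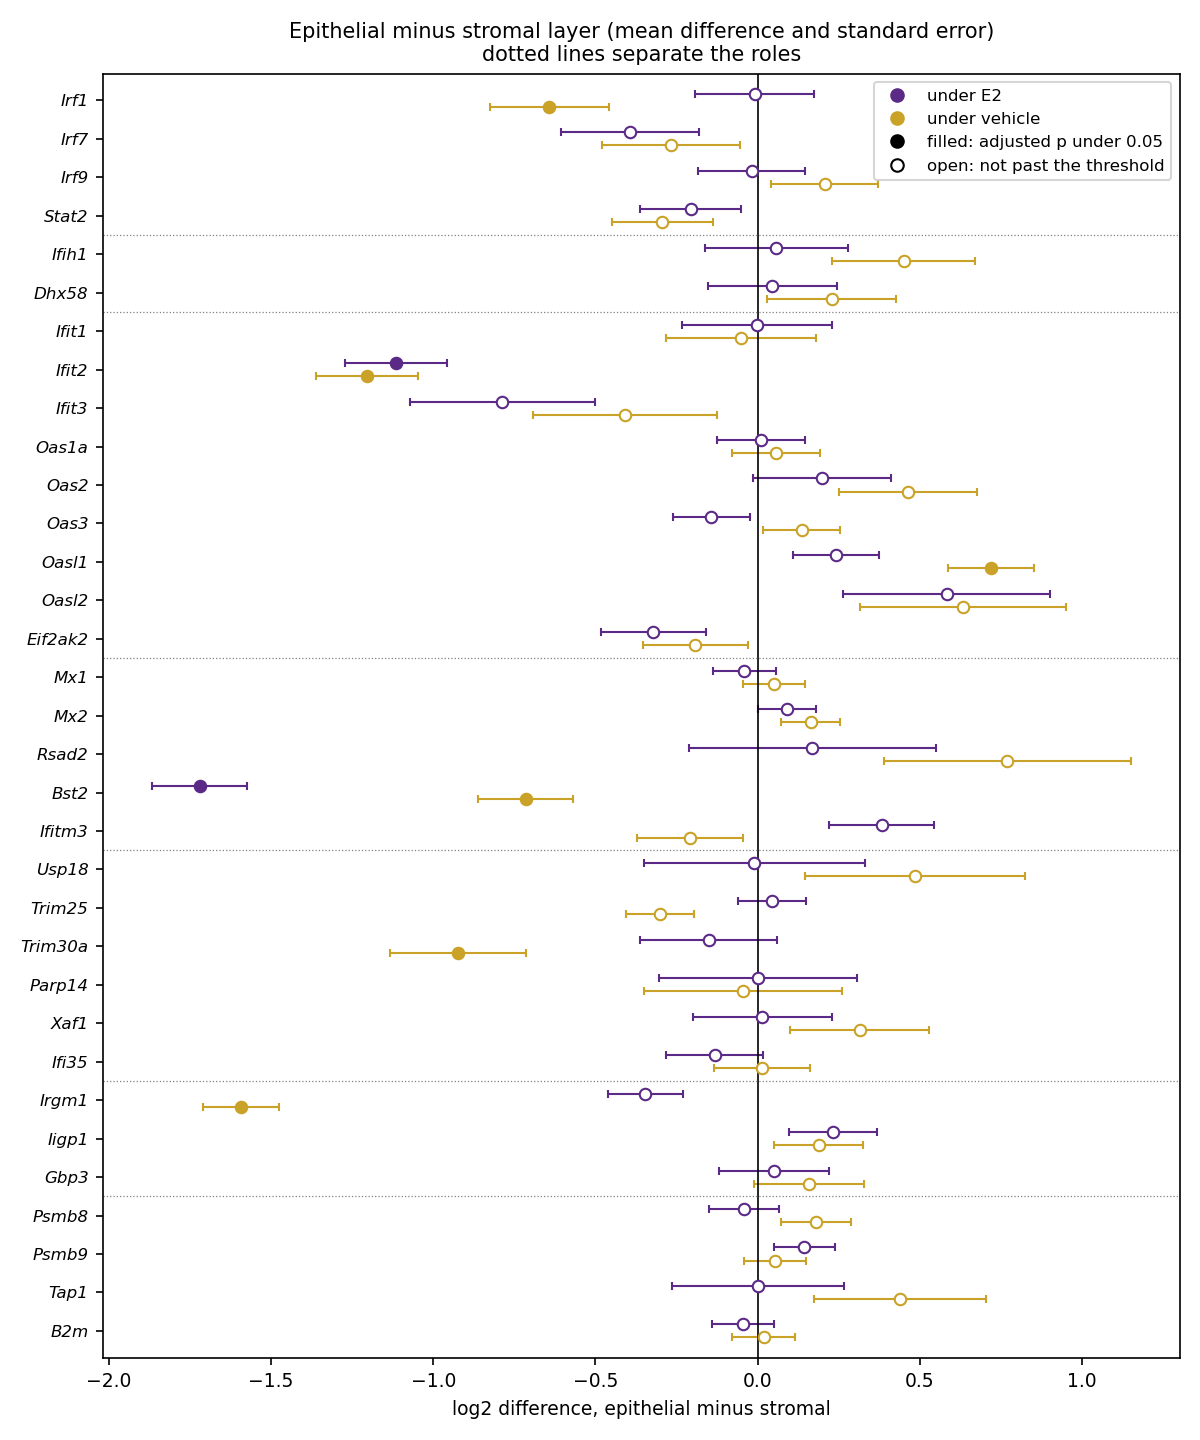
Epithelial minus stromal log2 difference (horizontal axis) of the 33 measured genes by role (vertical axis), with standard errors, under E2 (purple, upper mark) and under vehicle (yellow, lower mark). Filled marks passed an adjusted p of 0.05: Bst2 and Ifit2 under both treatments, and Irgm1, Trim30a, Irf1 and Oasl1 under vehicle.

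Replicates of 1 group differed more in these genes than in the array as a whole, in 3 of the 4 groups. The members' median SD was 0.160 in E2-treated epithelium and 0.323 in vehicle-treated epithelium, beside 0.156 and 0.180 for all genes. In stroma it was 0.162 under E2 and 0.176 under vehicle, beside 0.0797 and 0.0944 for all genes. An SD over 0.5 was found for 3 members in vehicle-treated epithelium (Rsad2, Parp14 and Usp18), where 6.41% of genes had one. In vehicle-treated stroma 3 members also exceeded it, against 1.15% of genes: Oasl2 with an SD of 0.786, Ifit3 with 0.545 and Usp18 with 0.522. Under E2 no member did in either layer, and the largest SD was that of Tap1, 0.404 in epithelium and 0.408 in stroma. These are descriptions of 3 arrays per group, with no test.

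The members tended to be high or low on the same arrays. Stromal vehicle replicate 2 was the lowest of its group for 26 of the 33 members, against 45.6% of all genes, and stromal vehicle replicate 3 was the highest for 20, against 36.9%. Ifit3 read 6.89, 6.15 and 7.21 on the stromal vehicle arrays and Ifit1 read 6.31, 5.52 and 6.27, each lowest on the second. Irf1 and Trim25 were highest on this array, and so were Bst2, Psmb8 and Psmb9, though nearly level with another array of the group. In vehicle-treated epithelium replicate 2 was highest for 18 members (34.6% of genes), replicate 3 for 15 (33.3% of genes) and replicate 1 for 0 (32.1% of genes). Those 18 included Rsad2, Usp18, Parp14, Ifih1 and Dhx58, and the other 15 included Ifit1, Ifit2, Ifit3, Trim30a and Gbp3. Among E2 arrays, replicate 3 was highest for 22 members in epithelium (49.9% of genes) and for 20 in stroma (32.6% of genes). The endothelial marker mean was also highest on stromal vehicle replicate 3, at 7.90, and the epithelial marker mean lowest, at 6.89.

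**Figure D4:**
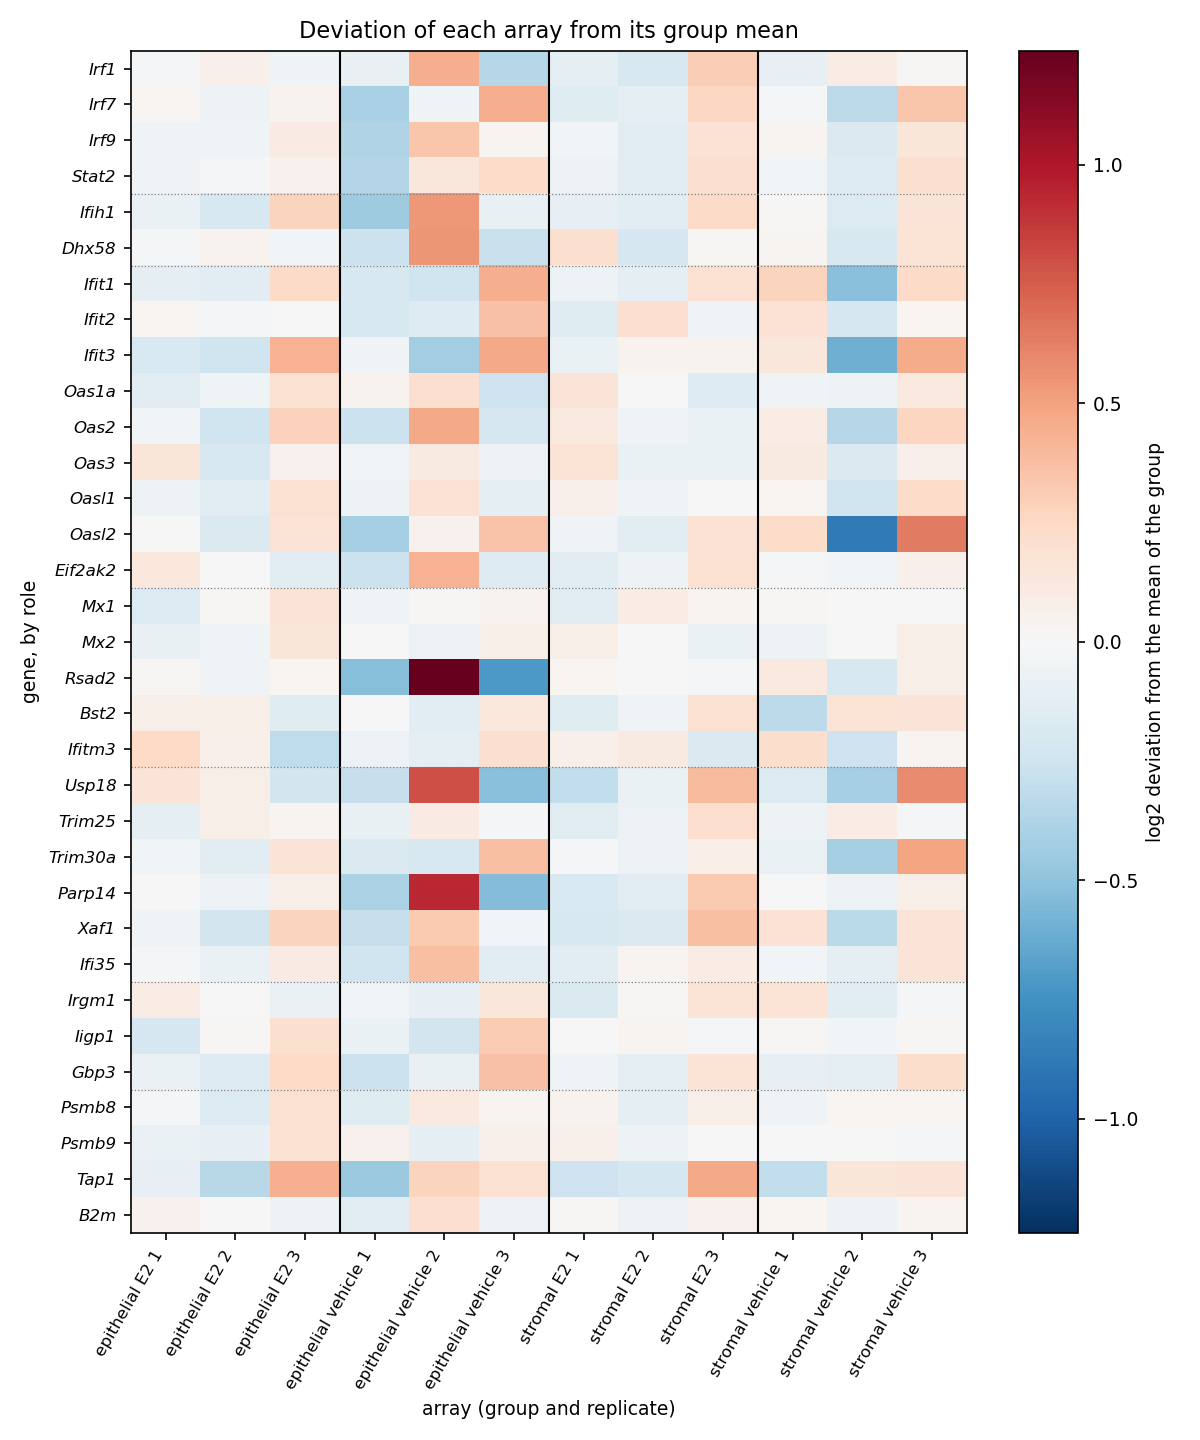
Deviation of each array from the mean of its own group (colour, log2 units) for the 33 measured genes by role (rows) on the 12 arrays (columns). Rsad2, Usp18 and Parp14 stand out on epithelial vehicle replicate 2, Oasl2 and Ifit3 are low on stromal vehicle replicate 2, and the arrays treated with E2 are paler.

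The rest of the interferon pathway was read from further gene lists, chosen with earlier results of these data known. Among all probe sets, 1.98% were called lower and 1.52% higher with E2 in stroma, and 1.12% lower and 1.77% higher in epithelium. An unadjusted p under 0.05 was found for 12.5% in stroma and 16.2% in epithelium. A single call in a list is therefore not read as a result about that list. Of 21 listed interferon ligands 16 were measured, and none passed the E2 test in either layer (limma; none had an unadjusted p under 0.05). Ifnb1, the interferon beta gene, stayed between 5.55 and 5.89 on all arrays. Ifne read 7.22, 7.32 and 7.28 in E2-treated and 7.13, 7.41 and 6.73 in vehicle-treated epithelium, against 6.47, 6.38 and 6.20 in E2-treated and 6.29, 6.27 and 6.31 in vehicle-treated stroma. It was higher in epithelium by 0.92 ± 0.14 under E2 and 0.80 ± 0.14 under vehicle (limma adjusted p = 0.00134 and 0.00228), and every epithelial array was above every stromal one. Its E2 differences were 0.18 in epithelium and 0.06 in stroma and did not pass.

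Of 9 measured receptor chains and kinases, 2 fell with E2 in each layer. Ifngr2, a chain of the interferon gamma receptor, fell in both, with means of 11.35 ± 0.03 in E2-treated and 11.89 ± 0.22 in vehicle-treated epithelium (SD, n = 3 each; difference -0.55 ± 0.10, SE; limma adjusted p = 0.0161). In stroma it had means of 11.29 ± 0.01 under E2 and 11.77 ± 0.05 under vehicle (SD, n = 3 each; difference -0.48 ± 0.10, SE; limma adjusted p = 0.0225). Ifnar1, a chain of the type I receptor, fell in epithelium by 0.42 (limma adjusted p = 0.0236), and its stromal difference was -0.32 (limma adjusted p = 0.0624). Jak2 fell in stroma by 0.44 (limma adjusted p = 0.00919), with an epithelial difference of -0.31 (limma adjusted p = 0.0565). None of the 9 had a called difference in response between layers (limma; 1 had an unadjusted p under 0.05). The others did not pass: Ifnar2 differed by 0.05 in epithelium and -0.05 in stroma, Ifngr1 by -0.64 and -0.20, Jak1 by 0.19 and -0.14, and Tyk2 by -0.27 and -0.33. Of the interferon lambda receptor chains, Ifnlr1 differed by -0.77 in epithelium and 0.19 in stroma, and Il10rb by -0.52 and -0.25. The difference in response of Ifnlr1 was -0.96 ± 0.35 (limma adjusted p = 0.303). Among 11 negative regulators, Ptpn1, a phosphatase that acts on Jak kinases, rose in epithelium by 0.96 ± 0.15 (limma adjusted p = 0.00639) and was the 1 that passed in either layer. Socs1, the feedback inhibitor of Jak kinases, differed by 0.03 in epithelium and -0.18 in stroma.

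Among 45 further interferon-induced antiviral genes measured, 5 fell in stroma and none rose. Ifitm1, a neighbour of Ifitm3 on chromosome 7, had the largest fall, with 9.32, 9.35 and 8.75 in E2-treated stroma, against 12.19, 12.09 and 11.48 in vehicle-treated stroma (-2.78 ± 0.27; limma adjusted p = 0.000227). Epithelial Ifitm1 read 8.79, 8.81 and 8.70 under E2 and 8.68, 8.03 and 9.15 under vehicle, so outside vehicle-treated stroma the gene read 8.03 to 9.35. The others were Ifitm2 (-0.55), the ADP-ribosyltransferases Parp9 (-0.88) and Parp12 (-0.44), and Dtx3l (-1.04), the ubiquitin ligase partner of Parp9. The Ifitm genes are similar in sequence, and probe sharing between them was not tested. In epithelium 1 of the 45 fell, Rnf213 (-0.75; limma adjusted p = 0.0167), a large ubiquitin ligase.

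Of 19 measured genes induced mainly by interferon gamma, 1 fell in stroma, Casp4, the inflammatory caspase that senses lipopolysaccharide (-1.40 ± 0.14; limma adjusted p = 0.000286). In epithelium 2 fell, Casp4 by 0.72 and Cd40 by 1.52, and 1 rose, Gbp4. That guanylate-binding protein gene read 7.34, 7.83 and 7.16 in E2-treated epithelium, against 5.64, 5.95 and 5.77 in vehicle-treated epithelium (1.65 ± 0.27; limma adjusted p = 0.00869). All E2 arrays were above all vehicle arrays. In stroma Gbp4 read 5.65, 5.61 and 5.49 under E2 and 6.84, 5.51 and 6.20 under vehicle. Of 18 measured sensors and adaptors, Tlr2, a receptor for bacterial lipoproteins, fell in stroma by 0.86, and none passed in epithelium (limma; 9 had an unadjusted p under 0.05). Of 18 further antigen presentation genes, Cd74, the class II invariant chain and a leukocyte marker in many tissues, fell in stroma by 1.86 and none passed in epithelium (limma; 5 had an unadjusted p under 0.05).

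The list with most calls was that of NF-kappaB partners, genes of the inflammatory pathway that shares inducers with the interferon response. In stroma 11 of its 15 measured genes fell and none rose, with a list median of -1.17, and in epithelium 2 fell (Nfkbie and Tnf). Cxcl2, a neutrophil chemokine, read 7.33, 7.34 and 6.62 in E2-treated stroma, against 10.89, 10.38 and 10.91 in vehicle-treated stroma (-3.63 ± 0.33; limma adjusted p = 0.000153). Every E2 array was far below the vehicle arrays. The cytokine gene Il1a fell by 3.10 and Tnf fell by 2.58. Nfkbie, an inhibitor of NF-kappaB, fell by 1.17, and Nfkb2, a subunit of it, fell by 0.75.

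**Figure D5:**
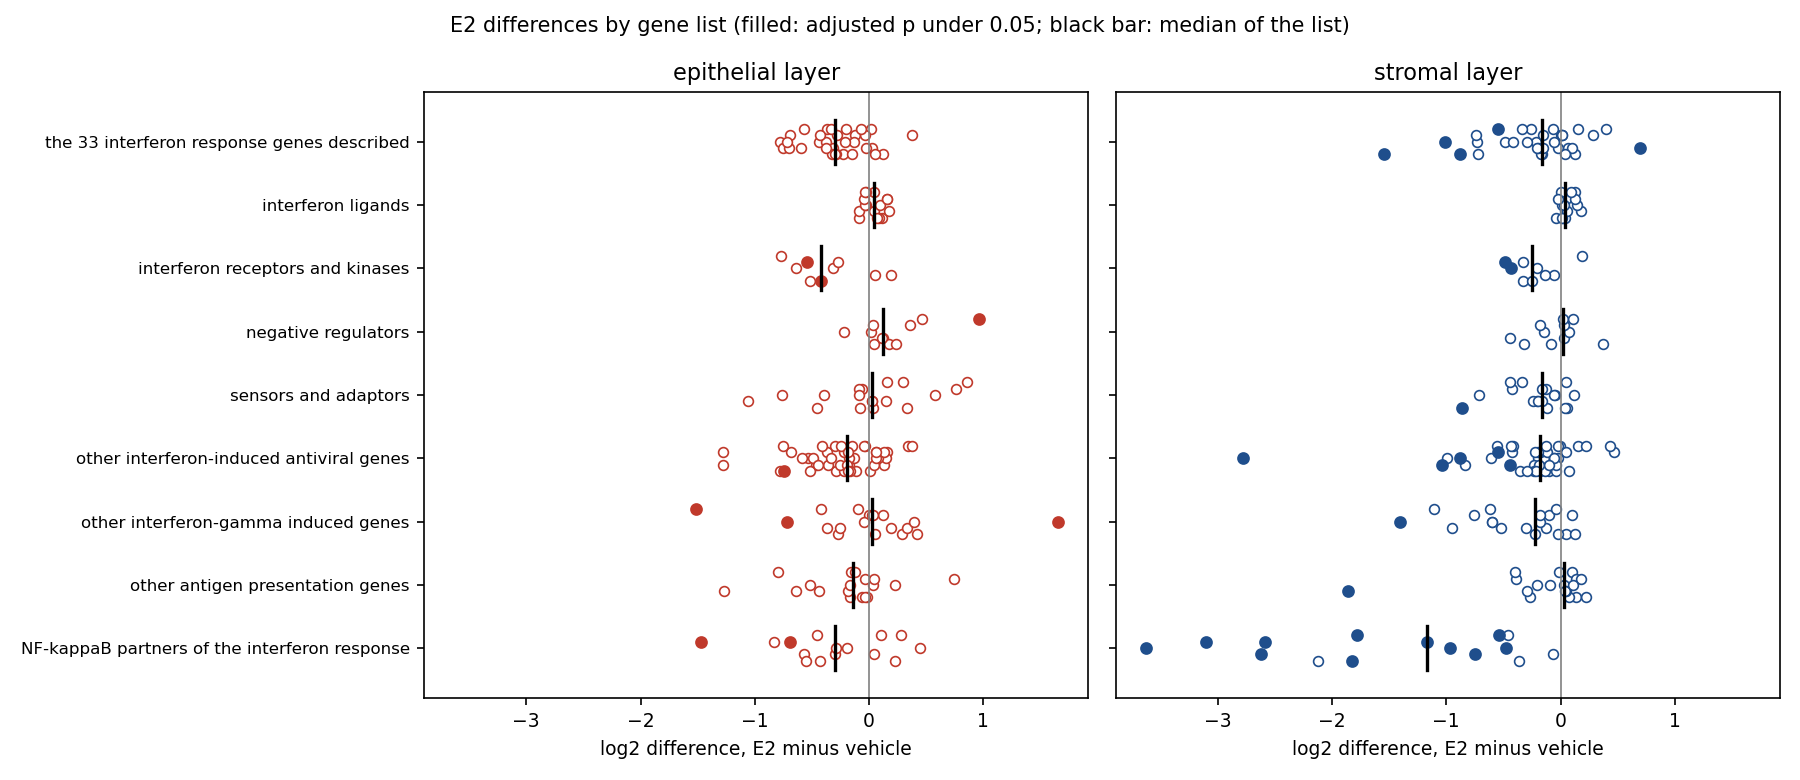
E2 minus vehicle log2 difference (horizontal axes) of each measured gene in 9 gene lists (rows), in the epithelial layer (left) and the stromal layer (right). Black bars are list medians and filled points passed an adjusted p of 0.05. The 11 filled NF-kappaB points of the stromal panel reach -3.63, while the interferon ligands stay close to 0 in both panels.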

How the data were processed

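The authors deposited 1 table of log2 values for 12 Affymetrix Mouse Gene 1.0 ST arrays (35556 probe sets, 3.2 to 14.0), made with RMA per the submitters' processing notes. The RMA program, its version and settings are not given in the sources used here. RMA pulls the arrays to 1 distribution, so a shift of all genes together could not be seen, and dim probe sets understate differences.

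Probe sets were named from GEO's platform annotation: 21789 carried 1 symbol, 1621 several and 12146 none. Symbols were checked against RefSeq, where 21698 of the single-symbol probe sets were found. Of different probe sets of a gene the one with the highest mean was used, and none was set against another gene's. limma 3.58.1 in R 4.3.3 (lmFit, contrasts.fit and eBayes) was run on 23410 probe sets with a symbol, as 1 fit of 4 group means (residual degrees of freedom 8, prior 3.27). The 5 comparisons were E2 against vehicle in each layer, the difference of these responses, and epithelium against stroma under each treatment. Benjamini-Hochberg adjustment ran over all 23410, with a threshold of 0.05. The precision is limited by 3 arrays per group, and 95% intervals are those of limma. The script was tested on simulated data. No pair of arrays held identical values.

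The labels do not say whether replicate numbers pair samples. Between vehicle epithelium and vehicle stroma, deviations from the group means correlated weakly, at 0.175, 0.137 and 0.125 for numbers 1 to 3. There, all 3 epithelial arrays correlated best with the stromal array of their own number, against 1 array in each other pair of groups compared. In no other pair did every number correlate above 0.1. Single numbers ranged from -0.419 to 0.273, both between E2-treated and vehicle-treated epithelium. Whether the numbers pair samples therefore stays unknown. The main fit has no block.

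Every measured member could be named. Values by array are given for members that passed an E2 comparison or the difference, for the 3 with the largest layer difference under vehicle in each direction, and for the brightest and dimmest. Usp18, Parp14, Irf9, Xaf1, Dhx58, Ifit1 and Ifit3 were shown by array after their values were seen. Other lists are given by counts and by those that passed, at most 5 per list and comparison. The members and all lists were chosen with earlier results of these data known. Promoters are RefSeq's, on GRCm38.p6. Alternatives covered the filter, scaling, variance model, probe-set rule, block, thresholds and each left-out array.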

Additional observations from a re-analysis of the deposited data

Results flagged for a closer look

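The E2 response differed between the layers, by the test of the difference itself, for 1 interferon response gene. Irgm1 had an epithelial response that exceeded the stromal one by 1.25 on the log2 scale (limma adjusted p = 0.00691), with responses of -0.30 in epithelium and -1.54 in stroma. Bst2 drew attention because its E2 arrays all lay below the vehicle arrays in epithelium and all above them in stroma. Its difference in response was -1.01, and the test of it did not pass (limma adjusted p = 0.0516).

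Among the other lists, the tested difference in response was called for Ifitm1 (2.93; limma adjusted p = 0.00678) and Gbp4 (2.26; limma adjusted p = 0.021). It was also called for the NF-kappaB partners Cxcl2 (3.43), Il1a (2.27) and Nfkbia (1.41), with limma adjusted p-values of 0.00857, 0.0249 and 0.0146. Of the E2 response controls, Pgr differed by 2.06 (limma adjusted p = 0.0186) and Igf1 by 1.89 (limma adjusted p = 0.0111). Igf1 had 10.45, 10.36 and 10.29 in E2-treated and 8.78, 9.23 and 9.603 in vehicle-treated epithelium, and 9.43, 9.40 and 9.86 in E2-treated and 10.05, 10.49 and 10.33 in vehicle-treated stroma, so that its arrays separated in opposite directions. Groups of 3 arrays were too small to test for single outlying arrays.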

How the results depend on the processing

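No called member reversed its direction under any alternative. Irgm1 kept its call in all alternatives of the stromal E2 comparison (log2 differences of -1.63 to -1.45), of the difference in response and of the vehicle layer comparison. Array weights gave 15 members lower with E2 in stroma and 5 in epithelium, and 5 higher and 2 lower in the difference in response. They gave 4 higher and 8 lower in epithelium than in stroma under E2, and 8 lower under vehicle. For none of these was the share of all probe sets called with weights counted. At an adjusted p of 0.01, stroma had 0 members higher and 1 lower with E2. With a further limit of 2-fold, stroma had 0 higher and 2 lower, and the vehicle layer comparison 0 higher and 2 lower. The filter at a mean of 6, quantile normalisation and the mean of a gene's probe sets each gave 1 member, Bst2, with a lower response in epithelium. With only the arrays compared, 1 member was higher in epithelium under E2 (Oasl2) and 3 were lower under vehicle. With the replicate block, 2 members were higher in epithelium under vehicle. The block also lost Ifitm3 in stroma and added Ifit3 as lower in epithelium under E2. Leaving out each replicate in turn gave 0 to 1 higher and 2 to 5 lower with E2 in stroma, and 0 to 1 in either direction in epithelium. It gave 0 to 1 with a lower response in epithelium, 0 to 1 higher in epithelium under E2, and 4 to 8 lower under vehicle. Scaling to reference genes shifted the median of all probe sets by 0.11 under E2 and 0.13 under vehicle in the layer comparisons, and Irf1 then lost its vehicle layer call. Shares of all probe sets called were counted for the main fit and threshold alone, so the counts of the alternatives have none beside them. The cause was not tested for any of these changes. Dim members such as Mx1, Iigp1 and Mx2 lay near the low end of the array, where differences are hard to measure.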
